A study of Homo sapiens with 12 samples.

Results

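The comparison described here is that of PLC/PRF5 cells overexpressing EGR1 with PLC/PRF5 cells carrying the empty vector, across all genes and beyond the glycolytic ones. PLC/PRF5 is an established human hepatoma cell line. The members are the gene rows with a mean FPKM of at least 1 over the 6 PLC/PRF5 libraries, and 11671 of 22963 gene rows met that rule. FPKM is the number of sequenced fragments of a gene divided by its length and by the size of the library, so levels are per length. The 6 libraries are 3 of vector cells and 3 of EGR1 cells, out of 12 libraries and 4 groups in the series, and the titles call the replicates biological. The EGR1 cells received the EGR1 coding sequence in a lentiviral pCDH vector, and the control cells received the vector without it. In that vector a CMV promoter drives the insert, and both groups carry its copGFP and puromycin resistance genes. Whether each line was a pool or a single clone is not given in the sources used here, so the line and the insert cannot be told apart.

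EGR1 is a zinc finger transcription factor encoded by an immediate early gene, which is switched on within minutes by growth factors, stress and injury. It binds GC-rich DNA and can activate or repress its targets. NAB1 and NAB2 are corepressors that bind EGR proteins and dampen their activity, and NAB2 is itself a known target of EGR1. In the liver EGR1 is known for its part in the early response to hepatectomy, injury and inflammation.

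EGR1 overexpression was evident in every library. EGR1 was at 1.97, 1.43 and 2.03 FPKM in the vector libraries and at 56.3, 50.2 and 52.2 FPKM in the EGR1 libraries. The lowest EGR1 library lay far above the highest vector library. On the log2(FPKM + 1) scale, which is used for every fold change here, the difference was 4.27 ± 0.11 (SE, n = 3 per group), with an adjusted p of 1.58e-07 from limma. The exact 2-sided permutation test over the 6 libraries gave p = 0.1, the smallest value that 3 against 3 allows. FPKM do not separate reads of the insert from those of the endogenous gene, which lies on the plus strand of chromosome 5 at 138465490 to 138469315 (GRCh38).

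Both corepressors rose. NAB2 was at 7.80, 8.53 and 8.41 FPKM in vector cells and at 23.1, 29 and 29.3 FPKM in EGR1 cells, a log2 difference of 1.60 ± 0.11 (SE, adjusted p = 5.2e-05). NAB1 was at 15.4, 16.2 and 15.6 FPKM against 27.3, 27.1 and 24.0 FPKM, a log2 difference of 0.70 ± 0.09 (SE, adjusted p = 0.00103), or 0.45 after the GC and length correction. Neither gene had overlapping groups. Of all genes tested, 19.2% were called higher and 47.7% had groups that did not overlap. The other family members EGR2, EGR3 and EGR4 stayed at or below 0.105 FPKM in all 6 libraries and were not tested.

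The DNA upstream of these genes is shown because EGR1 recognises a GC-rich motif. The 9-base motif GCGNGGGCG, and its other strand CGCCCNCGC, was searched in RefSeq promoter windows on GRCh38.p14, from 250 bases before to 50 bases after each annotated start. The sequences below are the 250 bases before the start, 5′ to 3′ on the strand of the gene, for EGR1, both corepressors and DOK7. Apart from EGR1, DOK7 was the only one of the 3 largest rises and 3 largest falls with a window that held a match, since CA9 had none and APOA1, KRT81 and CRH had no window here. Capitals mark the matches that lie within these 250 bases. NAB1 held 3 matches in its whole window, and the 2 within the bases shown overlap.
EGR1, chr5:138465229-138465478, plus strand: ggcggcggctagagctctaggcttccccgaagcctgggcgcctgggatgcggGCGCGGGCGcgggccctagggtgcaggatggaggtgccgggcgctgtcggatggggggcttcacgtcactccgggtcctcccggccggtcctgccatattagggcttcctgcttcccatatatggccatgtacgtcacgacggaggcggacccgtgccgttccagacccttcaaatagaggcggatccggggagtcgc
NAB2, chr12:57088864-57089113, plus strand: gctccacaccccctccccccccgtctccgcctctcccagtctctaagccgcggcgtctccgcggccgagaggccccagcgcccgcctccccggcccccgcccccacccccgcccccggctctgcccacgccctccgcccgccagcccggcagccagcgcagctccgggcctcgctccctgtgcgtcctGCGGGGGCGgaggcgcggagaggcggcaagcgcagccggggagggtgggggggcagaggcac
NAB1, chr2:190648645-190648894, plus strand: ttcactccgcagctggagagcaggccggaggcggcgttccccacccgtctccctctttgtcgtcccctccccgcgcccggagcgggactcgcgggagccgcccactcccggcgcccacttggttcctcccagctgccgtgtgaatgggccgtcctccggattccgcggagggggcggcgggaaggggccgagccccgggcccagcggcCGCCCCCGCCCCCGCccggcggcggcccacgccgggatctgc
DOK7, chr4:3463056-3463305, plus strand: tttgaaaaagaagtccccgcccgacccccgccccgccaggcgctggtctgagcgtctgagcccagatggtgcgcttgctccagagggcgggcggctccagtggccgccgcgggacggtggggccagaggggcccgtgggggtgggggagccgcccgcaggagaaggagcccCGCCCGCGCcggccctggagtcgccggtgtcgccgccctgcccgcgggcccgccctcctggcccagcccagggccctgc

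The motif was about as frequent upstream of genes that moved as of genes that did not. Among windows of tested genes, 15.7% of the 1689 of genes called higher, 18% of the 926 of genes called lower and 15.7% of the 6327 of genes not called held a match. The share was 16% of all 8942 tested windows and 9.28% of all 27305 windows, which are poorer in G and C, with a median GC content of 58.3% against 65.7%. In windows of genes called higher, called lower and not called the median GC content was 64.7%, 67.7% and 65.7%. Among windows of genes not called, 2.24% held a match in the lowest of 5 groups by GC content and 39.6% in the highest. A match in these letters is a description and not a binding site.

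Across the 11671 genes, 3457 passed an adjusted p of 0.05, which is 29.6%. Of these 2240 were higher with EGR1, 19.2% of the genes tested, and 1217 were lower, 10.4%. The vector and EGR1 values did not overlap for 5567 genes, 47.7%. Most changes were small, since 206 of the called genes moved by at least 2-fold, 139 of them higher and 67 lower. The count varied with the library left out, though each such fit also had fewer libraries and so less power. Without EGR1 replicate 2, EGR1 replicate 3 or vector replicate 3, it fell to 1944, 2213 and 2240. Without vector replicate 2 it was 4007. Apart from EGR1, its family, NAB1, NAB2, markers and the most abundant gene of each list, the genes named here were taken from called genes whose groups did not overlap, so the lack of overlap in them follows from that choice.

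The share of calls that rose was 64.8%, but it depended on scaling. It was 46.0% after quantile normalization and 48.6% after a trend on transcript GC content and length was removed from each library. The median log2 fold change of all genes was 0.09, and after these steps 0.01 and 0.00. Of the 3457 calls, 2593 and 2465 were also called, in the same direction, under the respective step. Quantile normalization called 1506 genes higher and 1767 lower of 11671, and the GC and length correction 1803 and 1907 of 10999. With the FPKM totals of the libraries made equal the counts were 1940 and 1329 of 11671. Counts of gene lists are to be read against those of all genes.

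Change followed the base composition of the transcripts. When the genes were cut into 5 equal groups by GC content, 40.3% of the group with the lowest content, 30.2% to 40.8%, were called higher and 1.86% lower. Of the group with the highest content, 58.2% to 74.7%, 8.64% were called higher and 22.3% lower. The slope of a library's log2 deviation per 10% GC was 0.166, 0.0186 and 0.0635 in the vector libraries and -0.118, -0.0823 and -0.048 in the EGR1 libraries, so the groups did not overlap in it. The deviation was taken from the mean of the same 6 libraries, so the slopes must balance and only their separation can be read. GC content and length together accounted for 17.8% of the variance of the fold changes across 10999 genes with a gene model. After the correction, 18.4% of the genes with the lowest GC content were called higher and 16.6% lower. Median fold changes per chromosome ran from -0.02 to 0.23, and from -0.03 to 0.03 after the correction. The part of this trend in the results was not tested. A corrected value stands beside each fold change of a gene that it moved by over 1.5 times or across the threshold. For many lists whose counts moved with the scaling or the correction those counts are given too, but not for all.

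Library totals of FPKM ran from 400299 to 423577 for vector and from 385388 to 435623 for EGR1, and the number of reads behind them is unknown. Between groups, Pearson's r across genes, which are not independent replicates, was 0.962 to 0.975, and within groups 0.986 to 0.995. Of the 16 hepatocyte markers 15 were expressed, but TTR, the carrier of thyroxine, was at 0.0428 to 0.514 FPKM in vector cells and listed at 0 in the EGR1 libraries. The fibroblast and stellate cell markers summed to 1.37 to 2.01 FPKM over all libraries and none passed the filter. Of 8 endothelial markers only PECAM1 passed, and of 8 blood cell markers CD68 and LYZ did, while PTPRC was listed at 0 in all 6. Of 6 cholangiocyte markers KRT7 and SOX9 passed, and CFTR was listed at 0. Of the 13 genes encoded in the mitochondrial genome 8 rose (61.5% called, all genes 29.6%), with a median of 0.60 that was 0.31 after quantile normalization. The 13 genes took 6.82% to 7.80% of the FPKM in vector libraries and 9.03% to 11% in EGR1 libraries. In bulk RNA, a change in the number of cells of a kind and a change in RNA per cell cannot be told apart.

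**Figure D1:**
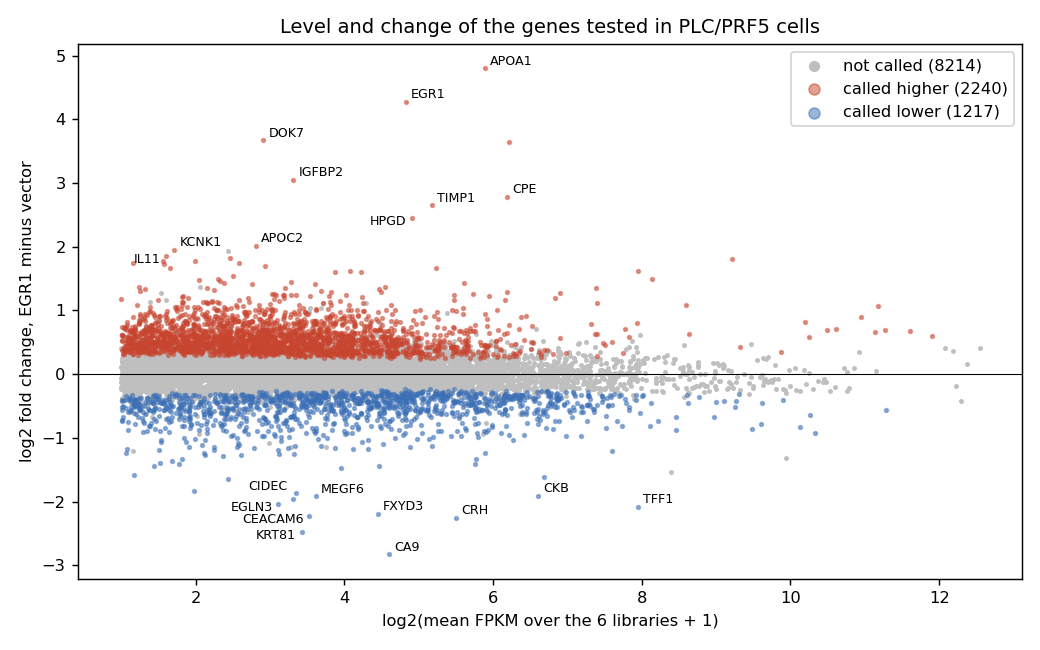
Log2 fold change, EGR1 minus vector, against log2(mean FPKM + 1) for the 11671 genes tested, 1 point per gene. The 2240 genes called higher and the 1217 called lower lie at all levels of expression, and the labelled genes are the 10 largest rises and 10 largest falls among called genes with a symbol whose groups did not overlap.

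A secreted liver protein, APOA1, had the largest rise on the log2(FPKM + 1) scale, while with a pseudocount of 0.1 DOK7, at 6.11, stood above it at 5.16. APOA1, the main protein of high-density lipoprotein, was at 2.06, 4.07 and 3.39 FPKM in vector cells and at 114, 108 and 117 FPKM in EGR1 cells. The lowest EGR1 library was far above the highest vector library, and the log2 difference was 4.80 ± 0.16 (SE, adjusted p = 1.44e-06). The gene lies on the minus strand of chromosome 11 at 116835751 to 116837950.

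Other apolipoproteins rose as well. APOC2, which activates lipoprotein lipase, went from 1.59, 1.67 and 2.11 FPKM to 8.88, 10.5 and 11.3 FPKM, a log2 difference of 2.01 ± 0.12 (SE, adjusted p = 2.24e-05). APOE, a ligand of the LDL receptor family and the most abundant gene of this list, was at 238, 275 and 226 FPKM against 479, 526 and 571 FPKM, a difference of 1.09 ± 0.11 (SE, adjusted p = 0.000453).

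Lipid genes with the opposite direction included a receptor and a lipase inhibitor. SCARB1, the receptor that takes up cholesterol from high-density lipoprotein, fell from 272, 263 and 276 FPKM to 109, 118 and 124 FPKM, a log2 difference of -1.21 ± 0.09 (SE, adjusted p = 7.19e-05). ANGPTL4, a secreted inhibitor of lipoprotein lipase, fell from 22.9, 22.7 and 19.9 FPKM to 7.67, 7.49 and 6.47 FPKM, a difference of -1.48 ± 0.10 (SE, adjusted p = 5.2e-05). In the whole list of lipoprotein genes, 17 of 28 were tested, 5 rose, 3 fell and 9 did not pass (47.1% called, all genes 29.6%). The median log2 fold change was 0.35.

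Plasma carriers and acute phase proteins leaned the other way, with 1 member higher, 7 lower and 6 not called among 14 tested. That is 57.1% called against 29.6% of all genes, with a median of -0.30. ALB, serum albumin, was the one that rose, from 108, 125 and 113 FPKM to 191, 209.8 and 202 FPKM, a log2 difference of 0.79 ± 0.09 (SE, adjusted p = 0.000738). SERPINA6, which carries cortisol in blood, fell from 8.14, 7.59 and 7.08 FPKM to 1.90, 2.77 and 3.13 FPKM, a difference of -1.27 ± 0.14 (SE, adjusted p = 0.000554). AHSG, a carrier that inhibits calcification, fell from 3.82, 3.86 and 3.87 FPKM to 1.28, 1.61 and 2.29 FPKM, a difference of -0.85 ± 0.14. EGR1 replicate 1 was the lowest EGR1 library for both SERPINA6 and AHSG. AMBP, the precursor of a plasma carrier and a protease inhibitor, was the most abundant member and did not pass, at 228, 255 and 233 FPKM against 223, 302 and 314 FPKM, a log2 difference of 0.22, which was called at 0.26 after the GC and length correction (adjusted p = 0.0295).

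Coagulation, complement and protease inhibitor genes moved in both directions. A2M, which traps proteases, rose from 126, 106 and 129.9 FPKM to 331, 387 and 397 FPKM, a log2 difference of 1.62 ± 0.12 (SE, adjusted p = 6.43e-05). SERPINA1, alpha-1 antitrypsin, was at 1438, 1343 and 1334 FPKM in vector cells and at 1994, 2932 and 2813 FPKM in EGR1 cells, a difference of 0.89 ± 0.17 (SE, adjusted p = 0.00535). ITIH2, a chain of the inter-alpha-trypsin inhibitor, rose by a log2 difference of 1.35. KNG1, the kininogen, and SERPING1, the inhibitor of complement C1, fell, with log2 differences of -0.90 and -0.67, both from vector levels under 4 FPKM. Over 23 tested members of the list 5 rose and 7 fell (52.2% called, all genes 29.6%). The median was 0.09, or -0.04 after quantile normalization. Of 15 hepatocyte markers tested 4 rose and 2 fell (40% called, all genes 29.6%), with a median of 0.26. The hepatocyte markers summed to 2543 to 2643 FPKM in vector libraries and to 3365 to 4429 FPKM in EGR1 libraries. Most of that rise was SERPINA1, the most abundant, with a mean of 1372 FPKM in vector and 2579.8 FPKM in EGR1 libraries. Of the 15 markers tested 9 were not called.

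**Figure D2:**
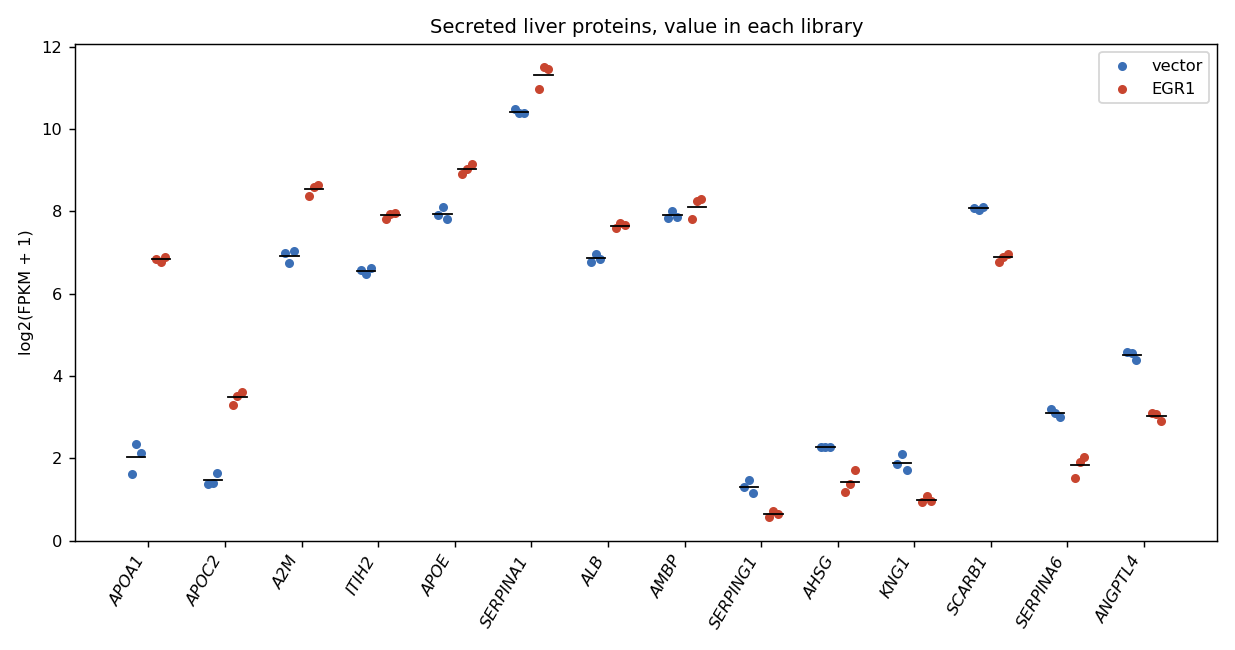
Log2(FPKM + 1) of secreted liver protein genes and the lipoprotein receptor SCARB1 in each library, ordered by fold change, with 1 point per library and a bar at the group mean. APOA1 stands apart at 2.06 to 4.07 FPKM in vector cells and 108 to 117 FPKM in EGR1 cells, and the groups overlap for AMBP.

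Known targets of EGR1 were mixed, with 5 of 13 higher, 2 lower (53.8% called, all genes 29.6%) and a median of 0.15. NAB2, described above, had the largest rise of this list, at 1.60. GADD45A, a stress-response gene, rose from 16.8, 25.4 and 19.3 FPKM to 36.9, 47.6 and 41.6 FPKM, a log2 difference of 1.01 ± 0.15 (SE, adjusted p = 0.00226). PDGFB, a growth factor, fell from 5.40, 5.76 and 6.24 FPKM to 4.28, 3.38 and 3.95 FPKM, a difference of -0.48 ± 0.11 (SE, adjusted p = 0.011). FN1, fibronectin, was the most abundant of the list and did not pass, with a log2 difference of 0.46 and an adjusted p of 0.0711, or of 0.19 after the GC and length correction.

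Of 17 tested AP-1 and immediate early genes 6 rose and 2 fell (47.1% called, all genes 29.6%), with a median of 0.24. After quantile normalization 4 rose and 1 fell. MAFF, a small partner of bZIP factors, rose by 0.63 ± 0.09 (log2, SE, adjusted p = 0.00192), from 8.07 to 9.46 FPKM up to 14.0 to 14.3 FPKM. NR4A1, an orphan nuclear receptor, rose by 0.52 ± 0.08 (log2, SE, adjusted p = 0.00224), from 52.2 to 53.7 FPKM up to 74.9 to 80.5 FPKM. ZFP36, which destabilises AU-rich mRNAs, fell by 0.37 on the log2 scale. JUND, an AP-1 subunit, was called lower with a difference of -0.63, but the call held in 6 of 15 alternatives and was lost after the GC and length correction, at -0.35 (adjusted p = 0.112).

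The 22 liver-enriched transcription factors tested were split, with 5 higher, 4 lower (40.9% called, all genes 29.6%) and a median of 0.00. HNF4G, a nuclear receptor, was at 1.38, 2.57 and 2.04 FPKM in vector cells and at 5.76, 5.05 and 3.82 FPKM in EGR1 cells, a log2 difference of 0.98 ± 0.17 (SE, adjusted p = 0.0045), or 0.58 after the GC and length correction. ONECUT1, a cut-homeodomain factor of liver development, rose by 0.82 ± 0.14 (log2, SE, adjusted p = 0.00396). CREB3L3, a liver factor bound to the endoplasmic reticulum membrane, fell from 23.5, 16.7 and 24.5 FPKM to 8.85, 11.6 and 11.9 FPKM, a difference of -0.93 ± 0.16 (SE, adjusted p = 0.00401). FOXA1, a pioneer factor, was called lower at -0.45, a call that held in 10 of 15 alternatives. CEBPB, the most abundant of the list, did not pass.

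KLF, SP and WT1 factors are zinc finger proteins that, like EGR1, bind GC-rich DNA. Among 16 tested KLF, SP and WT1 genes none was called higher and 1 lower, KLF2, at a log2 difference of -0.67. The other 15 were not called, so 6.25% were called against 29.6% of all genes. The median of 0.17 was 0.02 after the GC and length correction, which called 1 higher and 1 lower. KLF5, the most abundant, was at 36.3, 39.4 and 40.8 FPKM against 44.3, 35.8 and 36.9 FPKM. Of 37 HOX, SOX and FOX genes 1 rose and 5 fell (16.2% called, all genes 29.6%), or 3 and 4 after the correction. SOX9, a factor of bile duct and progenitor cells, fell from 11.4, 10.9 and 11.5 FPKM to 7.38, 5.18 and 4.89 FPKM, a log2 difference of -0.87 ± 0.14 (SE, adjusted p = 0.00274). HOXA13 fell by 0.73 on the log2 scale and FOXN2 rose by 0.88, or 0.39 after the GC and length correction.

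Genes named ZNF were the largest group with a one-sided count. Of 287 tested 99 were higher and 6 lower, with a median of 0.26, where 19.2% of all genes were higher and 10.4% lower. In the list 36.6% were called, against 29.6% of all genes. After quantile normalization 46 were higher and 16 lower, with a median of 0.12, and after the GC and length correction 82 and 9, with a median of 0.14. These steps called 1506 higher and 1767 lower of all 11671 genes, and 1803 and 1907 of 10999. ZNF195, a Krüppel-type factor, was at 2.20, 4.04 and 2.98 FPKM against 7.63, 7.28 and 7.31 FPKM, a log2 difference of 1.07 ± 0.15 (SE, adjusted p = 0.00194), and of 0.59 after the correction. ZNF467 went the other way, from 1.94, 1.92 and 1.90 FPKM to 0.358, 0.150 and 0.249 FPKM, a difference of -1.23 ± 0.10 (SE, adjusted p = 0.000165).

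Signalling genes gave several of the largest changes. DOK7, an adaptor that activates the muscle kinase MuSK, was at 0.0579, 0.114 and 0.095 FPKM in vector cells and at 13.1, 12.7 and 12.9 FPKM in EGR1 cells. It was nearly silent in all vector libraries, and the log2 difference was 3.67 ± 0.09 (SE, adjusted p = 1.58e-07), or 6.11 with a pseudocount of 0.1. The gene lies on the plus strand of chromosome 4 at 3463311 to 3501473.

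Binding proteins of insulin-like growth factors rose together with a cytokine. IGFBP2 was at 0.863, 1.24 and 1.32 FPKM against 15.4, 17.0 and 17.7 FPKM, a log2 difference of 3.05 ± 0.11 (SE, adjusted p = 1.92e-06). IGFBP1, a binding protein secreted by liver, was at 246, 284 and 252 FPKM against 1019.7, 855 and 885 FPKM, a difference of 1.81 ± 0.11 (SE, adjusted p = 2.76e-05). IL11, a cytokine of the gp130 family, was at 0.218, 0.380 and 0.304 FPKM against 3.28, 3.28 and 4.67 FPKM, a difference of 1.86 ± 0.13 (SE, adjusted p = 6.9e-05). IGFBP1 was abundant in both groups, whereas IL11 was under 1 FPKM in every vector library. CX3CL1, a membrane-bound chemokine, rose by 1.73 ± 0.12 from levels under 1 FPKM.

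Some receptors and other ligands fell. AXL, a receptor tyrosine kinase, was at 63.8, 50.2 and 64.0 FPKM against 34.5, 34.3 and 34.5 FPKM, a log2 difference of -0.76 ± 0.11 (SE, adjusted p = 0.00175). FGFR4, the receptor of FGF19 in hepatocytes, was at 165, 162 and 160.1 FPKM against 113, 103 and 112 FPKM, a difference of -0.57 ± 0.08 (SE, adjusted p = 0.00199). Among cytokines, CXCL16 fell by 0.96 on the log2 scale, MDK by 0.69 and MIF, the most abundant, by 0.64. Of 35 growth factor and receptor tyrosine kinase genes 12 rose and 8 fell (57.1% called, all genes 29.6%). Their median of 0.05 turned to -0.11 after quantile normalization, with 9 higher and 9 lower. Of 28 cytokine genes 10 rose and 10 fell (71.4% called).

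In the ERK feedback list, which holds genes that ERK signalling induces, none of 17 tested was called higher and 3 lower. That is 17.6% called against 29.6% of all genes, with a median of 0.01. After quantile normalization 6 were lower, with a median of -0.11, and after the GC and length correction 6 were lower and 1 higher, with a median of -0.14. The 3 called lower included ETV4, an ETS factor, with a log2 difference of -0.80 ± 0.09 (SE, adjusted p = 0.00071), and DUSP4, a phosphatase of MAP kinases, at -0.51 ± 0.08 (SE, adjusted p = 0.00337).

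TGF-beta and BMP genes showed changes in both directions, with 10 higher and 7 lower of 35 (48.6% called, all genes 29.6%). The median was 0.13. After the GC and length correction 8 were higher and 11 lower, with a median of -0.06. TGFB1 rose from 18.5, 16.9 and 17.0 FPKM to 33.0, 25.1 and 27.2 FPKM, a log2 difference of 0.67 ± 0.11 (SE, adjusted p = 0.00349). LTBP1, which tethers latent TGF-beta to matrix, fell from 4.96, 4.6 and 4.83 FPKM to 1.52, 1.87 and 1.69 FPKM, a difference of -1.11 ± 0.10 (SE, adjusted p = 0.000195). INHBB, a subunit of activin B, rose by 0.72, and ID3, a target of BMP signalling, fell by 0.56.

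Wnt genes were split, 5 higher and 4 lower of 23 (39.1% called, all genes 29.6%) with a median of 0.05. After quantile normalization 3 were higher and 6 lower with a median of -0.08. APC and AXIN2, negative regulators of beta-catenin, rose by 0.91 and 0.59 on the log2 scale, and APC by 0.53 after the GC and length correction. FZD2, a Wnt receptor, and DKK3, a secreted protein of the Dickkopf family, fell by 1.11 and 1.01. CTNNB1, beta-catenin, did not pass, with an adjusted p of 0.139. In the Notch and Hippo list 8 of 25 rose and 3 fell (44% called, all genes 29.6%) with a median of 0.11. After quantile normalization 5 rose and 3 fell with a median of -0.06. CCN1, a matricellular target of YAP, rose from 40.7, 42.0 and 40.5 FPKM to 103, 102 and 100.4 FPKM, a difference of 1.29 ± 0.08 (SE, adjusted p = 2.06e-05). TEAD1, the DNA-binding partner of YAP, rose by 0.82, or 0.54 after the GC and length correction. HEY1, a Notch target, fell by 1.02. Of the interferon-stimulated and MHC class I genes 1 of 22 was higher and 6 lower, 31.8% called against 29.6% of all genes. OAS1, an antiviral enzyme, was at -1.07 ± 0.10.

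Transport genes held both rises and falls. Of 175 solute carriers tested 32 rose and 38 fell (40% called, all genes 29.6%), with a median of -0.01. After quantile normalization 22 rose and 47 fell, with a median of -0.11, and after the GC and length correction 29 rose and 49 fell, with a median of -0.07. SLC25A18, a mitochondrial glutamate carrier, rose from 0.404, 0.331 and 0.381 FPKM to 2.63, 2.36 and 2.14 FPKM, a log2 difference of 1.30 ± 0.10 (SE, adjusted p = 0.000113). SLC15A1, a peptide transporter, fell from 13.4, 11.6 and 14.3 FPKM to 4.67, 4.74 and 5.33 FPKM, a difference of -1.25 ± 0.10 (SE, adjusted p = 0.000143). SLC25A18 was under 1 FPKM in every vector library. SLC29A4, a monoamine transporter, fell by 1.17. SLC25A5, an ADP/ATP carrier and the most abundant solute carrier, was at 456, 436 and 428 FPKM against 379, 472 and 475 FPKM and did not pass.

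Amino acid transporters included the pair that exchanges cystine for glutamate. SLC3A2, the heavy chain of that and other exchangers, was at 182, 180.1 and 170.5 FPKM against 294, 307 and 328 FPKM, a log2 difference of 0.80 ± 0.09 (SE, adjusted p = 0.000592). SLC7A11, its light chain, was at 1.44, 1.86 and 1.99 FPKM against 4.98, 4.41 and 4.33 FPKM, a difference of 1.02 ± 0.11, and of 0.49 after the GC and length correction. Both were called in all 15 alternatives. Of 21 members 7 rose and 3 fell (47.6% called, all genes 29.6%), among them SLC6A8, the creatine transporter, at -0.63. The median of 0.24 turned to -0.04 after the correction, with 7 higher and 5 lower, while 4 were higher and 5 lower after quantile normalization.

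Canalicular and basolateral exporters of the hepatocyte were among the rises. SLC51B, a subunit of the bile acid exporter OST, rose from 25.2, 28.1 and 22.6 FPKM to 60.7, 73.3 and 75.7 FPKM, a log2 difference of 1.43 ± 0.11 (SE, adjusted p = 0.000119). ABCC2, which exports conjugated organic anions into bile, was at 62.3, 54.4 and 66.5 FPKM against 99.2, 102 and 98.9 FPKM, a difference of 0.71 ± 0.09 (SE, adjusted p = 0.00142). ABCA1, which loads lipid onto apolipoprotein A-I, went from 1.71, 1.68 and 1.90 FPKM to 5.23, 4.56 and 5.39 FPKM, a difference of 1.13 ± 0.10 (SE, adjusted p = 0.000198). These 3 genes were called in all 15 alternatives. ABCG2, a drug exporter, rose by 0.73, while SLCO2B1, an uptake carrier of organic anions, fell by 0.82. Of 10 bile acid and organic ion transporters 4 rose and 1 fell (50% called, all genes 29.6%), with a median of 0.17. Of 21 ABC transporters 6 rose and 3 fell (42.9% called), with a median of 0.19. After quantile normalization 2 of the first list fell.

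Of 37 ion channel genes 8 were higher and 8 lower as deposited (43.2% called, all genes 29.6%). The counts were 5 and 9 with the FPKM totals of the libraries made equal, 4 and 13 after quantile normalization and 7 and 12 after the GC and length correction. KCNK1, a potassium leak channel, was at 0.330, 0.356 and 0.350 FPKM against 3.98, 4.01 and 4.63 FPKM, a log2 difference of 1.95 ± 0.10 (SE, adjusted p = 9.7e-06). KCNF1, a potassium channel subunit, rose by 1.34, and CLIC3, an intracellular chloride channel protein, fell by 1.33. FXYD3, a regulator of the sodium pump, fell from 34.9, 38.3 and 31.3 FPKM to 5.89, 7.59 and 7.16 FPKM, a difference of -2.19 ± 0.11 (SE, adjusted p = 1.08e-05). All 4 metallothioneins tested, which bind zinc and copper, were called higher, against 19.2% of all genes, with a median of 0.74. MT2A, the most abundant, was at 300.2, 333 and 296 FPKM against 472, 476 and 493 FPKM, a difference of 0.63 ± 0.09 (SE, adjusted p = 0.00226). Reads of near-identical metallothionein genes can be shared, so single members are uncertain.

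**Figure D3:**
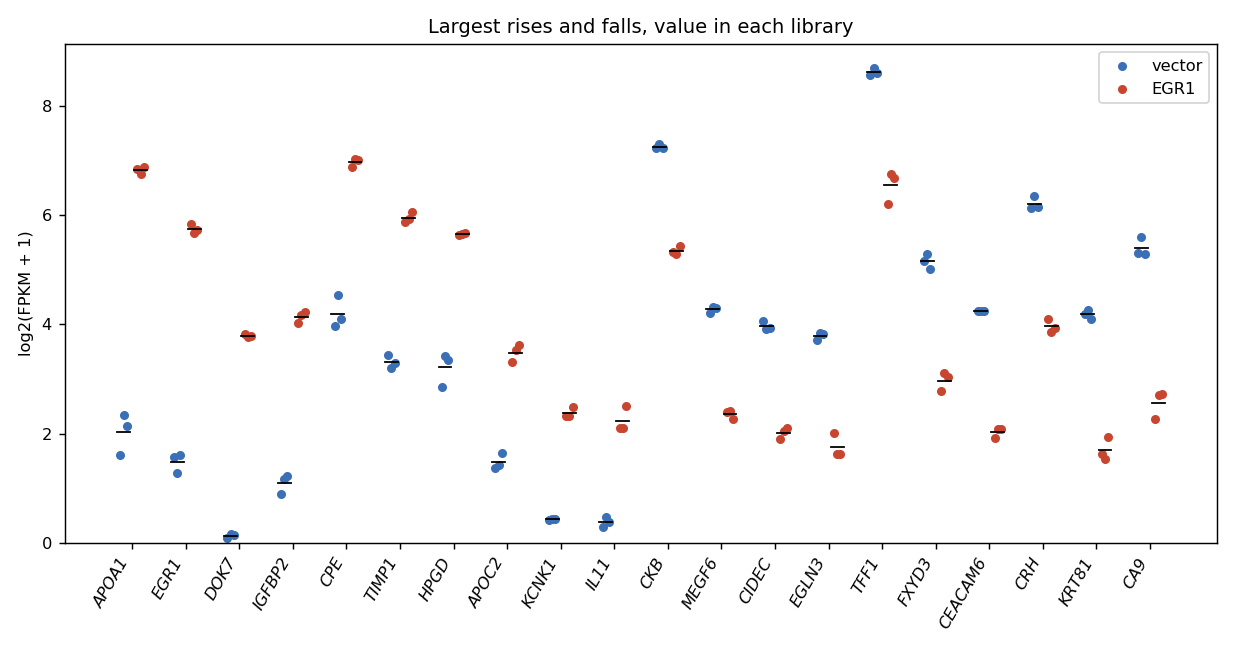
Log2(FPKM + 1) of the 10 largest rises and 10 largest falls in each library, ordered by fold change, with 1 point per library and a bar at the group mean. The genes were chosen among called genes whose groups did not overlap, and they range from APOA1 at 4.80 to CA9 at -2.83.

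Among structural genes, keratins changed in both directions. KRT81, a hair keratin, fell from 17.2, 18.2 and 16.2 FPKM to 2.07, 1.91 and 2.83 FPKM, a log2 difference of -2.48 ± 0.12 (SE, adjusted p = 9.21e-06). KRT23 rose from 16.7, 16.6 and 17.8 FPKM to 50.9, 58.9 and 58.9 FPKM, a difference of 1.66 ± 0.09 (SE, adjusted p = 1.25e-05). Keratin genes have close paralogs, and the counting could split their reads. KRT8, a main keratin of hepatocytes and the most abundant, was at 1229, 1199.9 and 1186 FPKM against 1085, 1286 and 1298 FPKM and did not pass. Of 16 intermediate filament genes 2 rose and 2 fell (25% called, all genes 29.6%), with 1 higher and 4 lower after quantile normalization.

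Of 42 cytoskeletal genes 3 were higher and 8 lower, 26.2% called against 29.6% of all genes. The counts were 3 and 13 with the FPKM totals of the libraries made equal, 5 and 11 after quantile normalization and 7 and 13 after the GC and length correction. ACTB, beta-actin, was at 2999, 2714 and 3189 FPKM against 1953, 2198 and 1892 FPKM, a log2 difference of -0.56 ± 0.14 (SE, adjusted p = 0.0159), a call that held in 11 of 15 alternatives. MYL9, a myosin light chain, fell by 0.89, and TUBB6, a beta-tubulin, rose by 0.87.

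Matrix genes were called in 71.4% of those tested, against 29.6% of all genes, mostly lower. Of 28 collagen, laminin and other matrix genes 14 fell, 6 rose and 8 did not pass, with a median of -0.24, and after quantile normalization 14 fell and 3 rose. LOX, which cross-links collagen, fell from 3.23, 3.90 and 3.79 FPKM to 0.829, 0.818 and 0.762 FPKM, a log2 difference of -1.36 ± 0.10 (SE, adjusted p = 8.24e-05). Its relative LOXL4 rose from 12.7, 11.3 and 12.1 FPKM to 27.6, 31.2 and 34.2 FPKM, a difference of 1.29 ± 0.10 (SE, adjusted p = 0.000105). NID1, a basement membrane protein, fell by 1.00, and THBS1, a matricellular protein, rose by 0.92.

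TIMP1, an inhibitor of matrix metalloproteinases, rose from 9.81, 8.19 and 8.85 FPKM to 58.0, 60.4 and 65.5 FPKM, a log2 difference of 2.65 ± 0.09 (SE, adjusted p = 1.44e-06). Its family member TIMP2 moved the other way, from 23.2, 19.2 and 22.3 FPKM to 13.4, 13.3 and 14.4 FPKM, a difference of -0.61 ± 0.10 (SE, adjusted p = 0.00269). SERPINE2, an inhibitor of serine proteases, fell by 0.90. Of 15 matrix proteases and inhibitors 3 rose and 5 fell (53.3% called, all genes 29.6%), with a median of -0.04.

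Integrins and adhesion genes were split. ITGA7, a laminin receptor subunit, rose from 3.30, 2.67 and 3.31 FPKM to 7.35, 8.44 and 8.24 FPKM, a log2 difference of 1.14 ± 0.11 (SE, adjusted p = 0.000258). ITGB5, a subunit of a vitronectin receptor, fell from 200.1, 183 and 193 FPKM to 89.3, 99.2 and 105 FPKM, a difference of -0.97 ± 0.09 (SE, adjusted p = 0.000285). ITGA5, a fibronectin receptor subunit, fell by 0.84. Of 14 integrins 4 rose and 4 fell (57.1% called, all genes 29.6%), and of 27 junction and adhesion genes 6 rose and 8 fell (51.9% called). After the GC and length correction 3 integrins rose and 6 fell, and 5 junction and adhesion genes rose and 12 fell. CEACAM6, a cell adhesion protein anchored in the membrane by a lipid, was at 17.9 FPKM in all 3 vector libraries and at 2.77, 3.21 and 3.23 FPKM in EGR1 cells, a difference of -2.22 ± 0.09 (SE, adjusted p = 3.22e-06). DSP and JUP, desmosomal plaque proteins, rose by 0.64 and 0.46.

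The remaining large changes belong to hormones, enzymes and secreted proteins. CPE, which trims prohormones, rose from 14.6, 22.2 and 16.2 FPKM to 118, 131 and 129 FPKM, a log2 difference of 2.78 ± 0.14 (SE, adjusted p = 9.63e-06). HPGD, which inactivates prostaglandins, rose from 6.23, 9.76 and 9.23 FPKM to 48.8, 49.6 and 50.2 FPKM, a difference of 2.45 ± 0.14 (SE, adjusted p = 2.06e-05). Vector replicate 2 was the highest vector library for both. CRH, corticotropin-releasing hormone, fell from 69.5, 80.7 and 70.7 FPKM to 16.1, 13.6 and 14.4 FPKM, a difference of -2.25 ± 0.10 (SE, adjusted p = 4.08e-06). TFF1, a secreted trefoil peptide, fell from 383, 419 and 389 FPKM to 73.1, 108 and 102 FPKM, a difference of -2.08 ± 0.14 (SE, adjusted p = 5.59e-05). CKB, the brain-type creatine kinase, fell by 1.91 on the log2 scale, CIDEC, a lipid droplet protein, by 1.96, and MEGF6, a protein with EGF-like domains, by 1.92.

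Hypoxia genes had the lowest median of the lists with at least 3 tested members, -0.57 over 22 tested, and -0.70 after the GC and length correction. Of them 13 fell and 1 rose (63.6% called, all genes 29.6%). CA9, a membrane carbonic anhydrase and a marker of hypoxia, was at 38.5, 47.4 and 38.3 FPKM in vector cells and at 3.80, 5.53 and 5.65 FPKM in EGR1 cells, a log2 difference of -2.83 ± 0.14 (SE, adjusted p = 9.7e-06) and the largest fall of any gene named. EGLN3, a prolyl hydroxylase that marks HIF for degradation, fell from 12.2, 13.3 and 13.1 FPKM to 3.04, 2.07 and 2.08 FPKM, a difference of -2.04 ± 0.12 (SE, adjusted p = 2.56e-05). HIF1A, the oxygen-regulated factor itself, was the gene that rose, by 0.50, with 0.13 and an adjusted p of 0.176 after the correction.

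Genes of the endoplasmic reticulum and of lipid synthesis also leaned lower. Of 26 ATF4 and unfolded protein response genes 10 fell and 1 rose (42.3% called, all genes 29.6%), with a median of -0.19. After the GC and length correction 17 fell and 1 rose, with a median of -0.28. HSPA5, the main chaperone of the endoplasmic reticulum, was at 202, 194 and 196 FPKM against 125, 131 and 134 FPKM, a log2 difference of -0.60 ± 0.08 (SE, adjusted p = 0.00155), and PDIA4, a disulfide isomerase, fell by 0.70. DDIT3, a stress-induced factor, was the one called higher, at 0.75, a call that held in 10 of 15 alternatives. Of 24 cholesterol synthesis genes none was called higher and 8 lower (33.3% called, all genes 29.6%), with a median of -0.21. After the GC and length correction 11 were lower and none higher, with a median of -0.24. SREBF1, which drives lipid synthesis genes, fell from 34.7, 37.2 and 35.3 FPKM to 19.3, 17.0 and 18.7 FPKM, a difference of -0.93 ± 0.09 (SE, adjusted p = 0.000237).

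Among 50 xenobiotic and alcohol metabolism genes 10 rose and 12 fell (44% called, all genes 29.6%), with a median of -0.12. After quantile normalization 11 rose and 17 fell, and after the GC and length correction 10 and 17, both with a median of -0.23. GSTP1, a glutathione transferase, was at 1666, 1771 and 1615 FPKM against 790.3, 941 and 944 FPKM, a log2 difference of -0.92 ± 0.12 (SE, adjusted p = 0.00142). CYP1A1, a target of the aryl hydrocarbon receptor, rose by 0.87. DNA replication and mitosis genes were lower in 11 of 38 and higher in 2 (34.2% called, all genes 29.6%), with a median of -0.07. PLK1, a mitotic kinase, had the largest fall of this list, by 0.62. The largest rise of this list was 0.74, or 0.41 after the GC and length correction. Of 13 cyclin D and CDK inhibitor genes 1 rose and 1 fell (15.4% called, all genes 29.6%), with 3 lower after quantile normalization. Of 79 cytosolic ribosomal proteins 6 fell and none was called higher, 7.59% called against 29.6% of all genes. With the FPKM totals of the libraries made equal 12 were lower and 1 higher. After quantile normalization 7 were lower and 3 higher, and after the GC and length correction 17 were lower, where that step called 1907 of 10999 genes lower. Of 10 histone genes 1 fell (10% called, all genes 29.6%), with 3, 4 and 5 lower under the same steps.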

How the data were processed

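RNA of PLC/PRF5 cells was extracted with Trizol, selected with oligo(dT), made into libraries treated with duplex-specific nuclease, which lowers the share of the most abundant transcripts, and read on an Illumina NovaSeq. The authors deposited FPKM per gene, and the submitters' processing notes name StringTie and hg38, while an aligner is not given in the sources used here. FPKM hold no read counts, so depth is unknown and no counting error could be given.

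Values were transformed as log2(FPKM + 1), which understates changes of genes with low FPKM. Genes whose mean FPKM reached 1 were fitted with limma 3.58.1 in R 4.3.3, with an intensity trend and no covariate, on the 3 vector and 3 EGR1 libraries. Tests were 2-sided and adjusted by Benjamini-Hochberg over all genes tested, with a threshold of 0.05. The rule for named genes took EGR1 to EGR4, NAB1 and NAB2, the 10 largest rises and falls among called genes with a symbol whose groups did not overlap, the 2 largest rises and falls of each gene list under the same conditions, and the most abundant tested member of each list. The text prints 119 of the 167 genes this gave. Marker genes were named besides. The members and the gene lists were chosen with earlier results of these data known. Lists are described by counts and medians and carry no test.

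Gene models of GENCODE release 29 gave coordinates on GRCh38, GC content and length for 94.2% of genes tested. The GC and length correction took a spline (5 degrees of freedom) on each out of every library, together with any biological change that follows them. The fit was tested on simulated libraries of 11671 genes for this comparison. Of 200 changed genes, 84% of those changed by 1 and 99% of those changed by 2 on the log2 scale were recovered, and 0.131% of unchanged genes were called. The simulated noise was independent between genes and held no GC trend, and far fewer genes were changed than the 3457 called here. The 0.131% therefore gives no rate of false calls for these data. Alternatives tried were adding 0.1 in place of 1, keeping all genes above 0, scaling to the same total, quantile normalization, no trend, all 12 libraries in a fit, a replicate block, the correction, stricter thresholds and leaving out each library. The correction together with the block was chosen after seeing the data. Figures used matplotlib 3.10.9 in Python 3.11.15.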

Additional observations from a re-analysis of the deposited data

How the results depend on the processing

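The count of 3457 called genes was 1944 to 4007 when a library was left out, lowest without EGR1 replicate 2 and highest without vector replicate 2. It was 1468 at an adjusted p of 0.01 and 206 with a change of at least 2-fold. The share of calls that rose, 64.8%, was 61.4% to 68.8% when a library was left out, 61.1% at 0.01 and 67.5% with a 2-fold change. It was 62.3% with the filter of FPKM above 0, 59.3% after scaling to the same total, 46.0% after quantile normalization, 48.6% with the GC and length correction and 48.4% with the correction and the replicate block. The EGR1 difference was 4.17 to 4.81 and was called throughout, from 4.17 to 4.33 when a library was left out.

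With the replicate block alone, 3253 genes were called, 66.6% of them higher. Same-numbered vector and EGR1 libraries deviated from their group means with correlations of -0.132, 0.136 and -0.0758 across genes. Differently numbered libraries had correlations of -0.165 to 0.205, so the same-numbered ones did not stand out. Whether same-numbered libraries were prepared together cannot be told from so few values.

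Of 1740 values of 116 named genes under the 15 alternatives, 1686 kept direction and side of the threshold, 30 lost the call, 10 gained it and 14 changed sign. The 14 belong to genes near 0. KLF5 was -0.04 with the correction with or without the block, 0.00 after quantile normalization, -0.03 after scaling, and -0.09 to 0.06 when a library was left out, the sign turning without EGR1 replicate 1 and, at -0.04, without vector replicate 1. KRT8 was -0.01 after scaling and -0.03 to 0.10 when a library was left out, at -0.02 and -0.03 without EGR1 replicates 2 and 3. SLC25A5 was 0.01 with the correction with or without the block, 0.11 after quantile normalization and without EGR1 replicate 1, and 0.02 without vector replicate 1, with a range of -0.06 to 0.11 when a library was left out. The cause of these shifts was not tested. Depth is unknown, so its limit on low genes could not be given.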
